A study of Aedes aegypti with 6 samples.

Results

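A set of 150 genes that stood far higher on 1 array than on the others was described in pupal testes of the yellow fever mosquito, Aedes aegypti. The array is the third replicate of the RED strain, which carries no drive. The genes were chosen by their measured levels: among the 8160 genes with a log2 intensity of 10 or more on RED replicate 3, out of 12813 genes on the array, the 150 with the largest gap were taken. The gap is the log2 intensity on RED replicate 3 minus the highest of the other 5 arrays, so 1 unit is a doubling of the array signal. Gaps and levels that made the choice are given below as a description, with no test.

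The study compared the meiotic drive strain T37, with 3 arrays, with the non-driving strain RED, also with 3 arrays. Each array carried Cy3-labelled total RNA from a separate extraction of testes of early male pupae, reared for both strains at 26°C and 80% humidity under 16 h of light and 8 h of dark. Both strains are whole laboratory strains, 1 of each kind, so a strain difference cannot be told apart from the drive. The labels do not give the number of males in an extract, and the description field of each RED sample also speaks of T37 replicates, whereas title, source and strain all say RED.

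Meiotic drive is the passing of a chromosome to more than its fair share of the gametes. In this mosquito a driver lies close to the locus that determines maleness, acts while sperm are formed, and leads to more sons than daughters. Testes of early pupae hold germ cells at many steps from mitotic division through meiosis to sperm formation, along with somatic cells of the testis wall, so a whole-testis extract reports the sum of these cells. Fewer cells of a type and less RNA per cell cannot be told apart in such an extract. The identifiers of the AAEL series are not paired with gene names in the table, and 0 of them matched the 19623 genes of the reference table. No function, tissue or stage is therefore given for any of the 150 genes, the testis origin of the extracts could not be checked on marker genes, and genes other than those singled out are given by their rank.

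The gap was wide for a part of the list and shallow for the rest. Its median was 1.73 on the log2 scale, or 3.32-fold, with quartiles of 1.46 and 2.37 and a highest value of 4.57. Gaps of at least 2 were found for 57 genes, of at least 3 for 12 and of at least 4 for 2. The list ends on a slope with no break: the genes ranked 149 and 150 had gaps of 1.334 and 1.333, and those ranked 151 and 152, just outside, had gaps of 1.328 and 1.326.

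The gene with the largest gap, AAEL013775, had a log2 intensity of 13.12 on RED replicate 3, against 8.54, 8.28 and 8.00 on T37 replicates 1, 2 and 3 and 7.90 and 8.21 on RED replicates 1 and 2. The other 5 arrays lay within 0.65 of each other, with no order by strain, and the gap of 4.57 is 23.8-fold. On the deposited linear scale this is an intensity of 8880 on RED replicate 3 against 238 to 373 elsewhere. The gene stood at percentile 83.6 of all genes on RED replicate 3 and between percentiles 7.15 and 18.9 on the other arrays, where it was among the dimmer genes.

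The gene ranked second, AAEL004369, showed another pattern beneath its gap. Its log2 intensity was 14.17 on RED replicate 3, against 7.72, 7.76 and 10.07 on T37 replicates 1, 2 and 3 and 9.43 and 8.75 on RED replicates 1 and 2. The gap of 4.11 was 17.2-fold, yet the other arrays were 2.34 apart, with T37 replicate 3 highest and T37 replicates 1 and 2 lowest. Of the next 10 genes by gap, those ranked 4, 5 and 11 also had T37 replicate 3 as the second highest array, with 9.10 over 6.72 and 6.92 on T37 replicates 1 and 2 for the gene ranked 4. The genes ranked 6, 7, 9, 10 and 12 had RED replicate 1 second, and the gene ranked 5 was the brightest of the whole list, at 15.21 on RED replicate 3 against 10.13, 10.48 and 11.59 on T37 replicates 1, 2 and 3 and 10.48 and 10.23 on RED replicates 1 and 2.

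**Figure D1:**
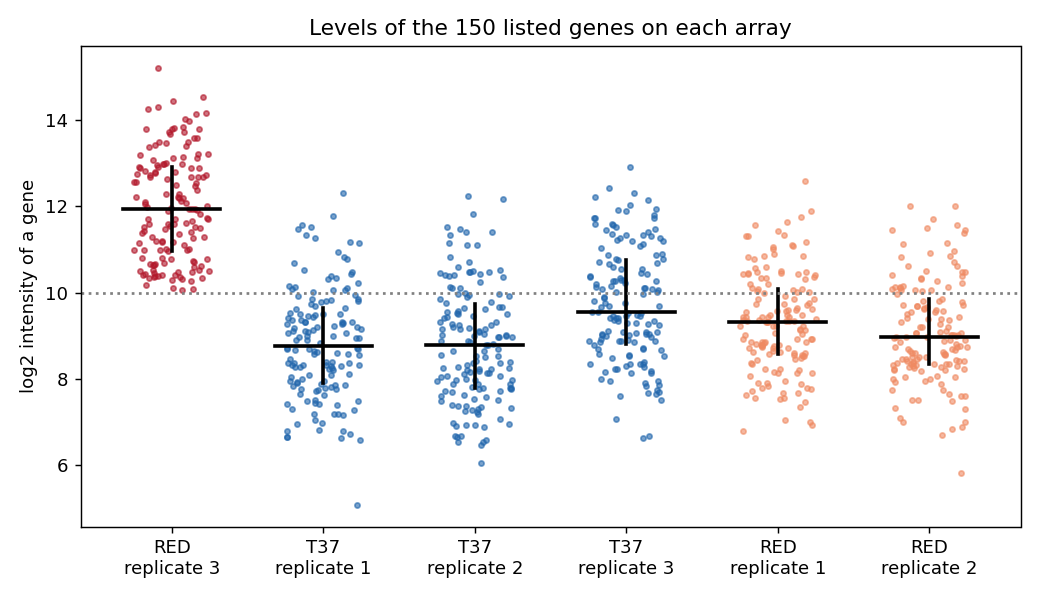
Log2 intensity of the 150 listed genes (points) on RED replicate 3 and on the other 5 arrays, with the median as a horizontal bar, the quartiles as a vertical bar and the level minimum of 10 as a dotted line. The median is 11.94 on RED replicate 3, where the rule sets the minimum, and between 8.77 and 9.56 on the other arrays, with T37 replicate 3 the highest of these.

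As a group the listed genes were of middle to high level on RED replicate 3 and dim elsewhere. The median log2 intensity over the 150 genes was 11.94 on RED replicate 3, against 8.77, 8.79 and 9.56 on T37 replicates 1, 2 and 3 and 9.32 and 8.97 on RED replicates 1 and 2. In percentiles of all genes on an array, the medians were 66.3 on RED replicate 3, against 21.7, 21.5 and 30.7 on the T37 arrays and 26.1 and 22.1 on the other RED arrays. On RED replicate 3, 113 of the 150, or 75.3%, lay above the array's median gene, near the 78.5% of all genes at the level minimum there, whereas 108 lay below the median gene on all of the other 5 arrays and 4 lay above it on all 5. Under the level minimum of 10 on every other array were 77 genes, and 15 were at 10 or more on every other array.

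A part of the list reached the dim end of the other arrays. Under the 5th percentile on at least 1 of the other 5 arrays were 18 of the 150 genes, or 12%. The share was 8.41% over all genes and 0.417% over the 8160 genes at the level minimum. The contrast with the 8160 follows in part from the rule, which favours genes low on the other arrays. On all 5 of these arrays, 0 genes of the list and 0 of the 8160 lay under the 5th percentile. With no detection calls in the table used here, low values could not be told from background. Listed genes were found over the whole range of levels on RED replicate 3: 42 at 10 to 11, 37 at 11 to 12, 38 at 12 to 13 and 33 above 13, which is 2.15%, 1.82%, 2.02% and 1.44% of the genes of those levels. The median gap was 1.61, 1.66, 1.77 and 2.07 in these bands.

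The same rule, run on each array in turn, found few genes on any array but RED replicate 3. A gap of at least 1 above all other arrays was found for 270 genes on RED replicate 3, 3.31% of the 8160 at the level minimum there, of which the list holds the upper 150. It was found for 5, 8 and 6 genes on T37 replicates 1, 2 and 3 and for 31 and 1 on RED replicates 1 and 2. With T37 replicate 3 left out, 422 genes had such a gap on RED replicate 3, and the median gap of the 150 genes then ranked highest was 2.37. Gaps of at least 2 numbered 57 on RED replicate 3 and 0 on each of the others, where the largest gaps were between 1.11 and 1.87. In level over all 12813 genes, RED replicate 3 correlated with the other arrays at 0.874 (RED replicate 1) to 0.908 (T37 replicate 2), by Pearson's r. Pairs of the other arrays lay at 0.893 to 0.983. RED replicate 3 also stood apart in its dim end, with a 5th percentile of log2 intensity of 6.47 against 6.94 to 7.61 on the others. Its median of 10.89 was close to theirs (10.80 to 10.90). After quantile normalisation, which gives all arrays the same distribution, 144 of the 150 genes were listed again and 248 genes had a gap of at least 1. The part of the dim end of RED replicate 3 in the gaps was not tested.

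**Figure D2:**
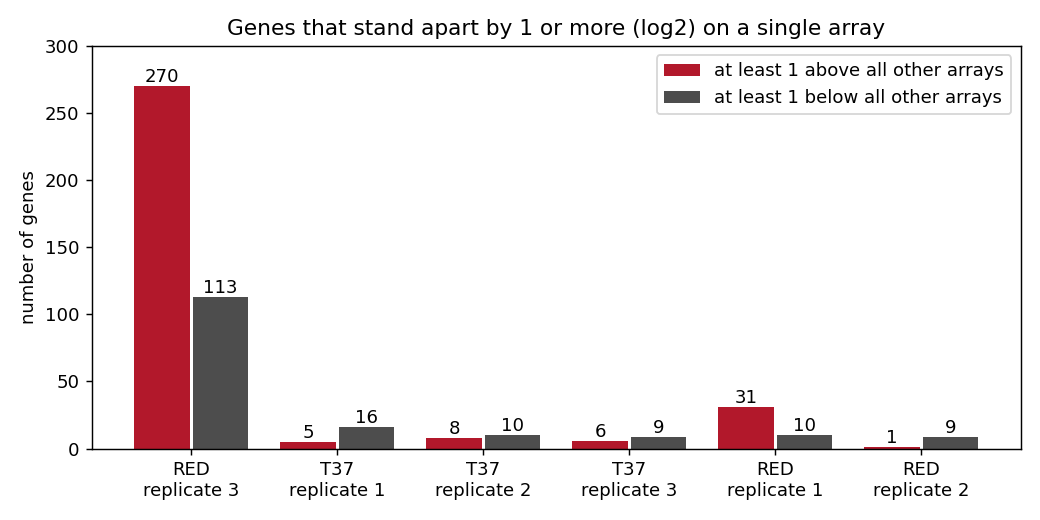
Number of genes that stood at least 1 on the log2 scale above all other arrays (red, genes at 10 or more on the array named) or below all other arrays (grey, genes at 10 or more on all others), for each array. RED replicate 3 has 270 and 113 such genes, and no other array has more than 31 and 16.

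The 150 genes differed in how flat they were on the other 5 arrays. The log2 range over those arrays had a median of 1.47 and was under 1 for 39 listed genes, or 26.0%, where 66.9% of the 8160 genes at the level minimum had a range under 1. It was 2 or more for 44 listed genes. The flattest gene, ranked 133, stood at 13.20 on RED replicate 3 and within 0.12 on the other arrays, with a gap of 1.38, and the least flat, ranked 113, had a range of 3.81. Being raised on RED replicate 3 alone thus describes the gap, not a level shared by the other arrays.

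T37 replicate 3 came next after RED replicate 3 more often than any other array. It was the highest of the other 5 arrays for 75 of the 150 genes, followed by RED replicate 1 for 39, RED replicate 2 for 17, T37 replicate 1 for 12 and T37 replicate 2 for 7. Over the 8160 genes at the level minimum T37 replicate 3 was the highest of these 5 in 16.3%, the lowest share of the 5 arrays. The array lowest of the 5 was T37 replicate 2 for 56 listed genes and T37 replicate 1 for 51. In the 75 genes with T37 replicate 3 second, the medians were 12.20 on RED replicate 3, 8.91, 8.98 and 10.28 on T37 replicates 1, 2 and 3 and 9.35 and 8.75 on RED replicates 1 and 2.

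Within the drive strain, T37 replicate 3 lay above both other T37 arrays for 120 of the 150 listed genes, or 80.0%, and below both for 16. Over all 12813 genes it lay above both in 38.2%. Its median difference from the mean of T37 replicates 1 and 2 was 0.78 over the listed genes and -0.07 over all genes. That share was larger among dim genes, and the listed genes are dim on T37 arrays: among the 2672 genes whose mean on T37 replicates 1 and 2 lay between 7.88 and 9.67, the quartiles of the list, T37 replicate 3 was above both in 52.4% (median difference 0.17), and among the 74 listed genes of that band in 81.1% (median difference 0.67). After cyclic loess, which removes level-dependent differences between arrays, the count was 118 of 150, against 39.3% of all genes. After quantile normalisation it was 111 of 150, against 36.3% of all genes. These counts rest on 1 array of T37, so there is no replicate check of them, and the comparison was chosen after the values were seen. The band was drawn from all genes, without the level minimum on RED replicate 3, so it is not matched to how the list was chosen. The rule used T37 replicate 3 for a gene where it was the highest array other than RED replicate 3. The counts are therefore not fully independent of the choice, and the part of the level in them was not tested.

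**Figure D3:**
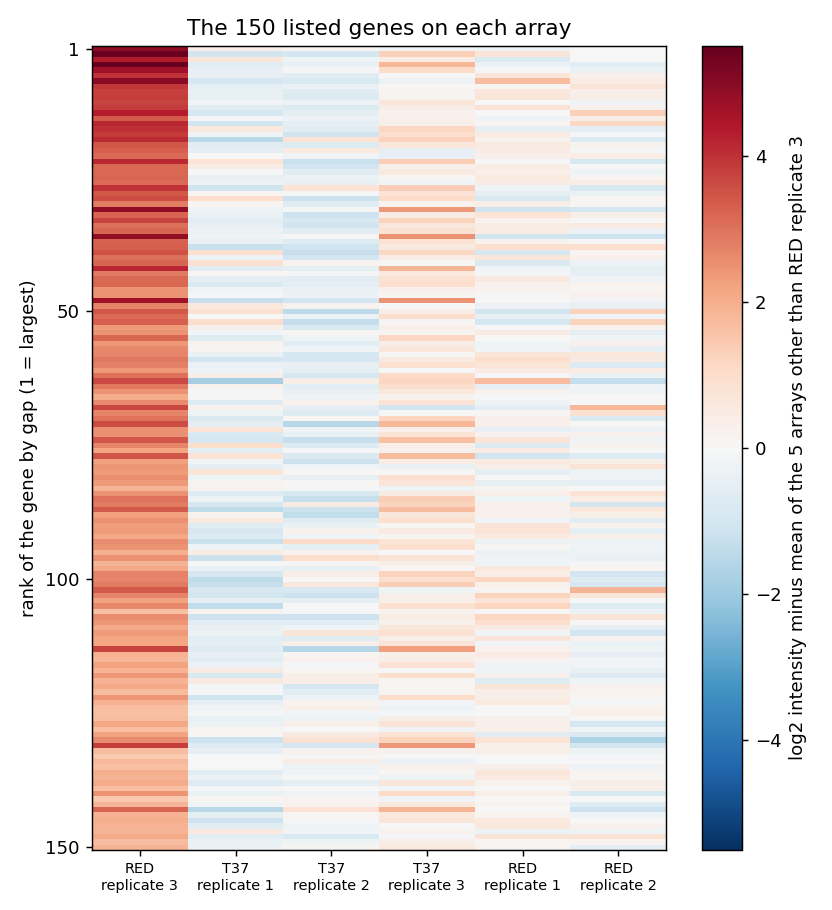
Each row is 1 of the 150 listed genes, ordered by gap, and each column an array; colour gives the log2 intensity minus the gene's mean over the 5 arrays other than RED replicate 3. The first column is red throughout, as the rule requires, and T37 replicate 3 is the array most often red among the rest, as the highest of the other 5 arrays for 75 genes.

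The spread of the listed genes was wide in T37, and in RED when RED replicate 3 was counted. The SD over 3 arrays had a median of 0.60 in T37 and 1.60 in RED for the listed genes, against 0.26 in T37 and 0.35 in RED over all genes. The RED value is set by the rule, since RED replicate 3 is among those arrays. Between RED replicates 1 and 2 alone the median SD was 0.29 for the listed genes and 0.22 over all genes. Of the 1553 genes on the array with an SD of at least 1 over the 3 RED arrays, 491 were at the level minimum. On the list were 134 of them, which the rule largely brings about.

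With RED replicate 3 among the arrays, the listed genes had a median T37 minus RED difference of -0.96 (log2), and the difference was below 0 for 148 of 150. By limma over all genes with Benjamini-Hochberg adjustment, 0 of the 150 passed an adjusted p under 0.05 and 12, or 8.0%, had an unadjusted p under 0.05, where 4.53% and 22.7% of all genes did. These values all follow in part from the rule, which used RED replicate 3 and so widened the spread of RED, and nothing is read from them.

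Without RED replicate 3, the strains were compared on the other 5 arrays. The rule used the highest of these arrays for each gene, though not its strain, so these values too are not fully independent of the choice. The T37 minus RED difference then had a median of -0.09 over the listed genes, with quartiles of -0.55 and 0.45, against -0.005 over all genes. It was below 0 for 83 of the 150, or 55.3%, against 50.3% of all genes. The sign changed from the comparison with all arrays for 65, or 43.3%, against 13.5% of all genes, as the rule in part brings about. Differences of at least 1 were found for 11 listed genes lower in T37 and 4 higher, or 7.33% and 2.67%. Over all genes these shares were 10.6% and 6.29%. By limma, with adjustment over all 12813 genes, 1 of the 150 was called, lower in T37, while 7.47% of all genes were called, 4.09% higher and 3.38% lower in T37. An unadjusted p under 0.05 was found for 25 listed genes, or 16.7%, and for 32.3% of all genes. The larger T37 spread of the listed genes stands beside this lower share, and its part in it was not tested.

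The called gene, AAEL003212, ranked 148 by gap and had a log2 intensity of 9.29, 9.03 and 9.77 on T37 replicates 1, 2 and 3, against 10.57 and 10.61 on RED replicates 1 and 2. No T37 array reached either of these RED arrays. The value of 11.95 on RED replicate 3 is set by the rule. The T37 mean was 9.36 ± 0.37 (SD, n = 3) and the mean of RED replicates 1 and 2 was 10.59 ± 0.03 (SD, n = 2). T37 was 2.35-fold lower, a log2 difference of -1.23 with an SE of 0.26 and a 95% interval of -1.87 to -0.59, at a limma adjusted p of 0.047. The call is at the threshold: the adjusted p was 0.053 after cyclic loess and from 0.139 to 0.264 without any 1 of T37 replicates 1 and 2 and RED replicates 1 and 2. The 2 genes with the largest gaps were not called: AAEL013775 had a difference of 0.22 (95% interval -0.36 to 0.80) and AAEL004369 of -0.57 (95% interval -2.41 to 1.26).

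The number of calls turned on T37 replicate 3, among the listed genes and over all genes alike. With it kept, 1 of the 150 and 7.47% of all genes were called. Without the third replicates of both strains, an alternative with 2 arrays a strain, 42 of the 150 were called by limma, 36 lower and 6 higher in T37. Over all genes 32.9% were called in that fit, with 2414 lower and 1807 higher in T37, so the 28.0% of the list is near the share of all genes. The difference was below 0 for 104 of the 150 listed genes, with a median of -0.32, and for 48.8% of all genes, with a median of 0.02. The 4 arrays of this fit are among the 5 that the rule used, so its values are not fully independent of the choice either. All genes are not matched in level to the listed genes, which are dim on these 4 arrays. The 5th percentile was 6.94 and 6.99 on T37 replicates 1 and 2, against 7.61 and 7.45 on RED replicates 1 and 2. The part of the level in this lean was not tested. Without T37 replicate 1 or T37 replicate 2, 0 of the listed genes were called, against 139 and 93 of all 12813 genes.

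**Figure D4:**
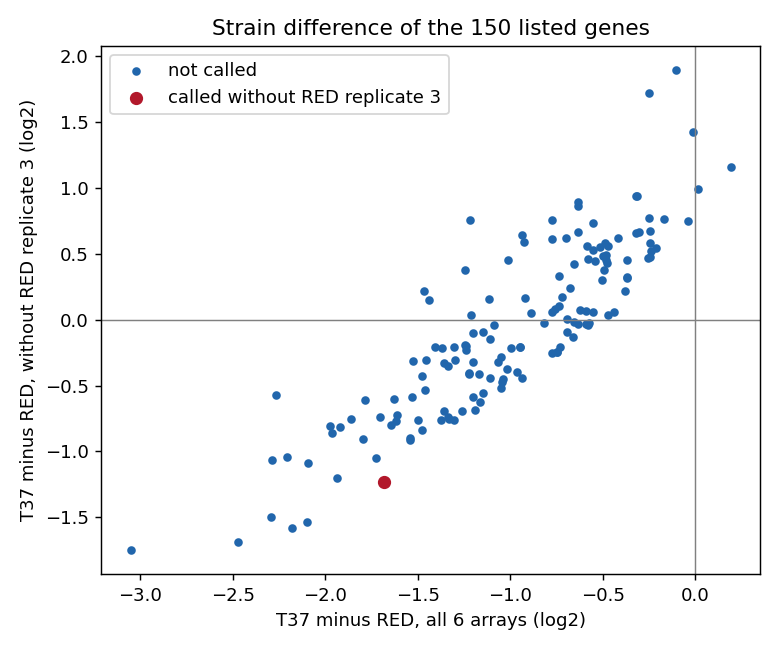
T37 minus RED log2 difference of each of the 150 listed genes with all 6 arrays (horizontal) and without RED replicate 3 (vertical), with the called gene AAEL003212 in red. All but 2 genes lie left of 0 with all arrays, as the rule brings about, and 83 lie below 0 without RED replicate 3.

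Several transcripts were measured for 8 of the 150 genes, or 5.33%, near the 5.05% of genes at the level minimum. All 18 transcripts of these genes had a gap of at least 1, the lowest at 1.18; since the genes were chosen on the mean of these transcripts, this is largely brought about by the rule. The gaps of the transcripts of a gene differed by a median of 0.24, and by 1.58 at most, in the gene ranked 59, whose 2 transcripts had gaps of 1.18 and 2.76. Transcripts of a gene can share sequence and so probes, which the table does not show.

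Some listed genes could not be told apart by their values. In 5 pairs, holding 10 of the 150 genes, both genes lay within 0.2 of each other on all 6 arrays. Such pairs were not counted over all genes. The genes ranked 9 and 10 differed by 0.09 at most, with 12.49 and 12.57 on RED replicate 3. Without probe sequences, near-identical copies that bind the same probes cannot be told from separate genes with a shared level, so the number of distinct transcripts behind the 150 may be lower. Consecutive identifier numbers, which need not mean neighbouring genes, were found in 10675 pairs over all genes. How many of those a list of 150 would hold by its size alone was not worked out. Among the listed genes there were 4 such pairs. In one of these AAEL013775, ranked first, follows the gene ranked 21, which had a gap of 2.75.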

How the data were processed

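Testis RNA of 3 T37 and 3 RED samples was measured on 6 one-colour arrays. The authors' deposited table holds linear intensities, 1 for each of 13471 transcripts on every array, from 7.70 to 64205. RMA was the authors' processing, per the submitters' processing notes. The RMA version, array design and annotation were not given in the sources used. RMA makes the arrays' distributions alike, and the table used here has no detection calls, so low intensities cannot be told from background. Samples were grouped by title.

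Intensities were converted to log2 and the transcripts of a gene averaged. T37 and RED were compared over all 12813 genes with limma 3.58.1 in R 4.3.3 (lmFit, eBayes, two-sided, no covariate), with Benjamini-Hochberg adjustment and a threshold of 0.05. The procedure was run on simulated data to check the size and sign of added differences. That simulation gave each array independent noise, unlike the structure shared between arrays given below, so it does not bear on the effect of that structure on the calls. The number of arrays limits the precision, and single genes were tested only in this fit. The list, its rule and the comparisons were chosen with earlier results of these data known. With no names for the identifiers, the planned counts of gene lists were not made, and the rule for named genes gave the 2 largest gaps, the 2 genes lowest on RED replicate 3 against all other arrays, and up to 2 called listed genes in each direction without RED replicate 3. Alternatives were other normalisations, level minimums and gap definitions, a filter on the dimmest 25% of genes, other eBayes priors, a block for replicate number and leaving out each array. The numbers did not pair the arrays: over genes, the deviation from the strain mean correlated between T37 and RED at -0.25 for replicate 1, -0.16 for replicate 2 and -0.17 for replicate 3. Differently numbered arrays reached 0.46 for T37 replicate 3 with RED replicate 1, 0.42 for T37 replicate 1 with RED replicate 2 and 0.37 for T37 replicate 2 with RED replicate 3, a shared structure that the comparison took no account of.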

Additional observations from a re-analysis of the deposited data

How the results depend on the processing

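The median gap of 1.73 and the 270 genes with a gap of at least 1 became 1.51 to 1.84 and 203 to 311 under other scalings, level minimums or the ranking of transcripts singly. Of the 150 listed genes, 136 to 147 were listed again under another scaling, 135 with transcripts ranked singly, 129 with a level minimum of 9 and 108 with one of 11. Raising dim values to the 5th percentile could not change a gap, since no ranked gene was under it on all other arrays. With the gap taken to the mean of the other 5 arrays the median was 2.87 and 979 genes had a gap of at least 1, as a mean lies below a maximum; 101 genes were shared. Leaving out each of the other 5 arrays gave a median gap of 1.76 to 2.37 and 284 to 422 genes, the highest without T37 replicate 3, when 105 were shared.

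Without RED replicate 3, limma called 1 listed gene and 957 of all genes. Other settings gave 4 listed genes after quantile normalisation and 2 each after cyclic loess, without the dimmest 25% of genes and with an intensity trend. Over all genes tested, these settings called 1194, 1049, 892 and 1206, in that order. The replicate block gave 48 listed and 4099 of all genes; T37 replicate 3 then has a block of its own and no part in the difference, and the numbers do not pair the arrays. Leaving out 1 more array gave 0 to 42 listed genes and 5 to 4221 of all genes, where the highest is without T37 replicate 3; with 1 RED array left, that array is assumed to vary like T37. With all 6 arrays 0 listed genes were called under every normalisation, filter, prior and block tried. The main fit on these arrays called 4.53% of all genes. When 1 array was left out, 0 to 1 listed genes were called, the 1 being without RED replicate 3. AAEL003212 kept its direction in all 12 alternatives and its call in 7 (adjusted p 0.0033 to 0.264).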

Other observations

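RED replicate 3 was also the array on which the most genes stood lowest. Of the 6739 genes at a log2 intensity of 10 or more on all other arrays, 113 lay at least 1 below all of them on RED replicate 3. The 2 lowest were AAEL003062 and AAEL001161. AAEL003062 stood at 7.81 on RED replicate 3, against 10.57, 10.26 and 12.27 on T37 replicates 1, 2 and 3 and 11.99 and 11.15 on RED replicates 1 and 2. AAEL001161 had 7.79 on RED replicate 3, against 10.57, 10.24 and 12.25 on the T37 arrays and 11.87 and 11.16 on the other RED arrays, within 0.12 of AAEL003062 on every array.

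The other arrays differed in median level over the 113 genes too. Median log2 intensity was 9.46 on RED replicate 3, against 11.21, 11.002 and 12.25 on T37 replicates 1, 2 and 3 and 12.84 and 12.09 on RED replicates 1 and 2. T37 replicate 2 was the lowest of the other 5 arrays for 80 of them. Without RED replicate 3, limma called 4 of the 113 higher and 0 lower in T37 at an adjusted p under 0.05, or 3.54%, against 7.47% of all genes called in that comparison.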
